A study of Mus musculus with 2 samples.

Results

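The enzymes that add acetyl groups to histones, the enzymes that remove them, proteins that read the mark and a corepressor that carries erasers to chromatin were described as a set of 31 named genes, out of 55536 genes in the deposited tables. The set was given by gene symbol: 18 erasers, 10 writers, the readers Brd2 and Brd3, and the corepressor Ncor1. PolyA-plus RNA came from forebrain of B6NCrl mouse embryos of both sexes at embryonic day 12.5, with 10 ng of RNA per library. Pool 1 joined the forebrains of 120 embryos and pool 2 those of 68, so each library averages over many animals and over every cell type of the dissected tissue. Both pools, labelled biological replicates 1 and 2, belong to 1 group, and the labels name no treatment, genotype or other contrast.

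Acetylation of lysines in histone tails neutralises their positive charge, loosens the contact with DNA and creates a docking surface for bromodomains. Writers transfer the acetyl group from acetyl-CoA. Erasers fall into zinc-dependent histone deacetylases (HDACs) and NAD-dependent sirtuins. In the developing cortex, class I deacetylases and the acetyltransferases CBP and p300 are known regulators of the balance between dividing progenitors and maturing neurons.

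The libraries held 33373843 (pool 1) and 34406648 (pool 2) gene counts. Levels are in TPM, an abundance per transcript length scaled to the same total in each library, and errors after ± are SDs over the pools (n = 2). All 6 neural progenitor markers and all 5 neuron markers that were checked had a TPM of at least 1 in both pools, with summed levels of 2385 and 2243 TPM for progenitors and 1362 and 1281 TPM for neurons. Markers of blood and meninges were present as well, and differed between the pools: 5 erythroid genes summed to 8055 TPM in pool 1 and 10786 in pool 2, and 5 genes of meninges and mesenchyme to 634.5 and 770.2 TPM. Of the microglial markers 3 of 4 were detected at a sum of 22.9 and 25.7 TPM, with Ptprc below 1 TPM. In bulk RNA, fewer cells of a type and less RNA per cell cannot be told apart, and these levels say nothing of protein or enzyme activity.

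All 31 genes had a TPM of at least 1 in both pools, against 58.9% of the 22028 annotated protein-coding genes. Their median level was 37.1 TPM, and that of all detected protein-coding genes was 21.9 TPM. A level of 10 TPM in both pools was passed by 27 members, and 100 TPM by 7: Hdac2, Hdac1, Ncor1, Hat1, Hdac3, Brd3 and Brd2. The share of all protein-coding genes past these limits was not counted. By mean level, Hdac11, the lowest of the 27, stood above 37.0% of detected protein-coding genes. Brd2, the lowest of the 7, stood above 88.8% of them. The most and least abundant members, Hdac2 and Sirt1, were 70.8-fold apart. When the members were put in order of level, the pools' values of neighbours did not overlap in 17 of 30 cases, and overlapped in the other 13. Expected counts were not exactly whole in at least 1 pool, as happens where reads are divided between genes, for 9 members: Hdac1, Hdac4, Hdac5, Hdac11, Sirt3, Sirt7, Kat5, Crebbp and Brd2.

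**Figure D1:**
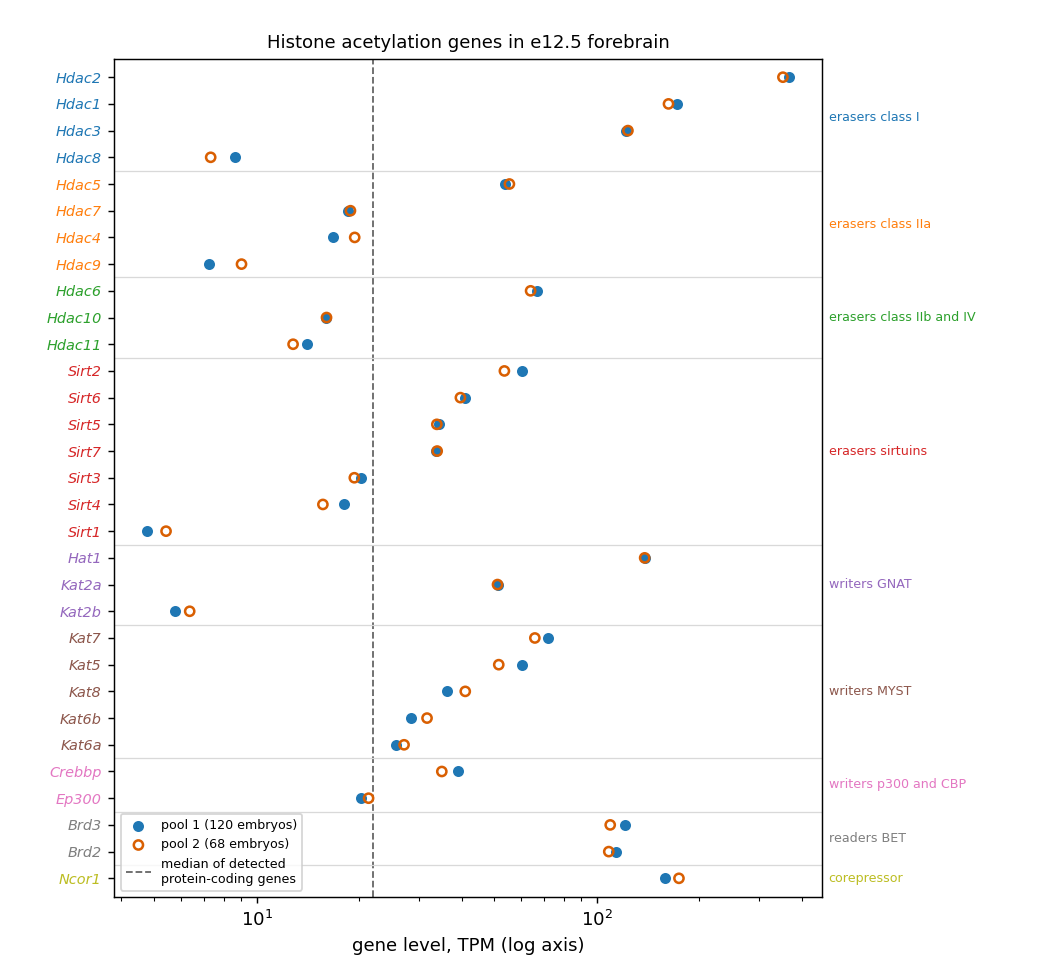
Level of each member in TPM on a log axis, with a filled point for pool 1 and an open point for pool 2, grouped by role; the dashed line is the median of detected protein-coding genes, 21.9 TPM. Hdac1, Hdac2, Hdac3, Hat1, the BET readers and Ncor1 stand at the right, while Sirt1, Kat2b, Hdac8 and Hdac9 stand below 10 TPM in both pools.

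Class I deacetylases made up most of the eraser message. Hdac2 and Hdac1 are the catalytic subunits of the NuRD, Sin3 and CoREST repressor complexes. Hdac2 (ENSMUSG00000019777.16, chromosome 10, 36974544 to 37001889, GRCm38) read 368 TPM in pool 1 and 352 in pool 2, the highest level of any member. Hdac1 read 172 and 162 TPM. Hdac2 was the higher of these paralogs in both pools, with Hdac1 minus Hdac2 at -1.10 ± 0.02 on the log2(TPM + 1) scale. Hdac3, the deacetylase of the NCoR complex, came next at 121 and 123 TPM. Hdac8, which deacetylates the cohesin subunit SMC3, stood far below the other 3 at 8.64 and 7.33 TPM. The 4 genes summed to 657 ± 17.8 TPM, out of 1058 ± 24.1 TPM for all 18 erasers. Each was carried mainly by a single protein-coding model, which held 99.1% of the TPM of Hdac2, 93.9% of Hdac8, 90.8% of Hdac1 and 84.5% of Hdac3.

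Class IIa deacetylases bind MEF2 transcription factors and shuttle between nucleus and cytoplasm. Hdac5 led them at 53.7 TPM in pool 1 and 55.3 in pool 2. Hdac7 stood at 18.5 and 18.9 TPM and Hdac4 at 16.7 and 19.4 TPM, and these genes overlapped. Hdac9 was lowest at 7.23 and 9.03 TPM. Hdac5 exceeded Hdac4 by 1.54 ± 0.11 and Hdac7 exceeded Hdac9 by 1.12 ± 0.18 on the log2(TPM + 1) scale. The difference between Hdac7 and Hdac9 was 0.52 over protein-coding transcripts of any length and 1.81 with the older GENCODE release M4. The class summed to 99.4 ± 4.58 TPM.

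The Hdac9 message lay mostly in models that stop early. Hdac9 (ENSMUSG00000004698.10, chromosome 12, 34047580 to 34917095) is annotated with coding sequences of up to 1067 codons, and the deacetylase domain of class IIa proteins is at the C-terminal end. The leading model, Hdac9-201, has 588 codons and read 3.13 and 3.97 TPM. Hdac9-208, with 560 codons, read 1.81 and 2.37 TPM. Together with another model of 544 codons, these short forms end at a shared stop codon, past which lie the last 492 codons of the long model Hdac9-205. They took 5.65 TPM in pool 1 and 6.92 in pool 2, or 77.5 ± 1.16% of the gene's TPM and 70.3% of its counts. The 4 models of 936 to 1067 codons took 0.75 and 0.98 TPM, or 10.6 ± 0.33% of the TPM and 17.9% of the counts. Short truncated forms of HDAC9 are known from muscle and brain as MITR, a MEF2-binding corepressor that lacks deacetylase activity. Release M4 gave Hdac9 a lower level, and the newer release exceeded it 1.66-fold.

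Class IIb and class IV genes differed widely. Hdac6, a mainly cytoplasmic tubulin deacetylase, read 66.8 TPM in pool 1 and 63.8 in pool 2. Hdac10, a polyamine deacetylase, read 16.0 and 16.1 TPM, and Hdac11, the sole class IV enzyme, 14.1 and 12.8 TPM. The 2 models of Hdac6 that each encode 1149 codons held 86.0 ± 2.78% of its TPM. Hdac10 was the opposite case. Its protein-coding model of 666 codons read 4.29 TPM in pool 1 and 2.58 in pool 2, while 35.2% of the gene's TPM was in retained-intron models and 42.1% in other non-coding models. Hdac6 exceeded Hdac10 by 1.96 ± 0.05 on the log2(TPM + 1) scale, and by 3.71 ± 0.31 when only transcripts with a near-complete coding sequence were counted. Near-complete here means a protein-coding model whose coding sequence has at least 90% of the length of the gene's longest. On that measure Hdac7 minus Hdac9 was 2.23 ± 0.23, and Hdac7, at 8.22 and 7.31 TPM, lay below Hdac4 at 13.9 and 14.5 TPM.

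Sirtuins are NAD-dependent enzymes that work in different compartments. Sirt2, the cytoplasmic tubulin deacetylase, was the highest at 60.4 TPM in pool 1 and 53.5 in pool 2. The nuclear Sirt6, which acts on histone H3 at telomeres and promoters, followed at 41.1 and 39.7 TPM, and the nucleolar Sirt7 read 33.6 and 33.9 TPM. Of the mitochondrial members, Sirt5, a desuccinylase, read 34.4 and 33.9 TPM, Sirt3, the main mitochondrial deacetylase, 20.3 and 19.4 TPM, and Sirt4 18.1 and 15.7 TPM. Sirt1, the founding nuclear member of the mammalian family, was the lowest of all 31 genes at 4.75 and 5.42 TPM, from 305 and 352 counts. Sirt1 minus Sirt2 was -3.25 ± 0.23 on the log2(TPM + 1) scale, and -5.45 ± 0.15 over near-complete coding models. The family summed to 207 ± 7.93 TPM. Sirt3 shares 342 exon bases with the opposite-strand proteasome gene Psmd13, at 248 and 241 TPM, and 418 with Ric8a, at 51.2 and 47.2 TPM. Whether the counting used strand is not given in the sources used here, so the Sirt3 level is uncertain. Sirt7 shares 124 bases with Mafg on the same strand, where strand cannot separate the genes, so its level is uncertain too.

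Sirt1 reads were assigned mainly to a model annotated for nonsense-mediated decay, the pathway that degrades messages with an early stop codon. Sirt1-205 read 2.90 TPM in pool 1 and 3.17 in pool 2, or 59.8 ± 1.81% of the gene's TPM and 67.4% of its counts. Sirt1-207, of 553 codons, read 1.2 and 1.33 TPM. The models that encode the longest protein, 737 codons, were assigned 0.07 and 0.08 TPM, from 6.53 and 7.51 counts. Whether the reads were divided rightly between these overlapping models was not tested. With the coding-sequence limit at 70%, chosen after seeing the data, Sirt1 came to 1.27 and 1.41 TPM. Sirt1-205 is an incomplete model with no annotated start codon. Sirt2 in contrast was split between 2 long coding models, of which 1 holds a 47-base exon that the other lacks. Sirt2-202, of 352 codons and without that exon, read 28.4 and 20.9 TPM, and Sirt2-201, of 389 codons and with it, 20.0 and 21.6 TPM. The model without the exon was higher in pool 1 and lower in pool 2. The sequences below come from the GENCODE M21 transcripts on mm10: for Sirt1-205 the start of the 125-base exon at chr10:63326660-63326784 (minus strand), absent from Sirt1-207, read to the stop codon in capitals, and for Sirt2-201 the exon at chr7:28767632-28767678 (plus strand), which lies wholly in coding sequence.
Sirt1-205: aagaaacagcatTGA
Sirt2-201: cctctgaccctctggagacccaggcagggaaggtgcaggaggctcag

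The mitochondrial sirtuins showed how much such shares depend on the annotation. Sirt5-201 and Sirt5-211, both of 310 codons, and Sirt3-202, of 257 codons, fall under the 90% limit, since each gene also has a longer model, at 1.30 and 2.40 TPM for Sirt5 and at 0.77 and 0.16 TPM for Sirt3. Release M21 gave levels 1.51-fold those of M4 for Sirt5 and 1.30-fold for Sirt3. With a limit of 80%, chosen after seeing the data, transcripts with a near-complete coding sequence came to 19.5 ± 0.06 TPM for Sirt5 in place of 1.85 ± 0.78 TPM, and to 12.9 ± 1.08 TPM for Sirt3 in place of 0.47 ± 0.43 TPM. Sirt4 did not move with this limit. Its coding models of 333 codons came to 2.41 and 2.14 TPM, or 13.5% of its TPM and 30.4% of its counts. In 3 retained-intron models of 599 to 733 bases lay 81.7 ± 7.01% of its TPM and 64.8% of its counts. Sirt4-206 led them at 6.70 and 5.36 TPM.

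Among writers of the GNAT family, Hat1 and Kat2a were abundant and Kat2b was scarce. Hat1 acetylates newly made histone H4 before it is deposited on replicating DNA. It read 139 TPM in pool 1 and 138 in pool 2, and the model Hat1-201 held 96.5 ± 0.29% of this. Kat2a (GCN5), the catalytic subunit of the SAGA and ATAC coactivator complexes, read 51.3 and 51.0 TPM. Its paralog Kat2b (PCAF), which occupies the same place in those complexes, read 5.76 and 6.36 TPM. Kat2a exceeded Kat2b by 2.89 ± 0.09 on the log2(TPM + 1) scale. The Kat2b level was higher in pool 2, whereas its counts were higher in pool 1, 399 against 354. A retained-intron model of 402 bases, Kat2b-207, read 0.50 TPM in pool 1 and 2.78 in pool 2 from 3.21 and 18.6 counts. The coding model Kat2b-201 read 4.00 and 3.31 TPM. TPM divides reads by the effective length of a model, so a few reads on a short model weigh heavily in a gene's level.

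The MYST family was led by Kat7. Kat7 (HBO1), which acetylates histone H3 lysine 14 and H4 with the BRPF and JADE scaffolds, read 71.8 TPM in pool 1 and 65.7 in pool 2. Kat5 (TIP60), the catalytic subunit of the NuA4-type complex, read 60.2 and 51.5 TPM. Kat8 (MOF), the main writer of H4 lysine 16 acetylation, read 36.3 and 41.0 TPM. Kat6b (MORF) and Kat6a (MOZ), paralogs that acetylate histone H3, read 28.4 and 31.7 TPM, and 25.7 and 27.1 TPM. The family summed to 220 ± 3.87 TPM, against 196 ± 0.16 TPM for the 3 GNAT genes. Over near-complete coding models this order turned round, with 137 ± 0.86 TPM for MYST and 181 ± 2.09 TPM for GNAT.

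The order of Kat6a and Kat6b depended on which transcripts were counted. At the gene level Kat6a minus Kat6b was -0.18 ± 0.05 on the log2(TPM + 1) scale. Over transcripts with a near-complete coding sequence it was 0.49 ± 0.06, with Kat6a at 18.9 and 19.7 TPM and Kat6b at 13.6 and 13.4 TPM. Retained-intron models held 52.8 ± 6.26% of the TPM of Kat6b and 35.6% of its counts. In Kat6a, the 419-base non-coding model Kat6a-203 held 26.9 ± 0.81% of the TPM with 1.29% of the counts. Kat5 was also split. Kat5-206, of 461 codons, led it at 20.6 and 15.1 TPM, and the models of 494 and 513 codons came to 9.16 and 10.3 TPM. Kat5-206 falls just short of the 90% limit, and at 80% the near-complete level of Kat5 is 27.5 ± 3.14 TPM in place of 9.72 ± 0.78 TPM. Kat5 shares 426 exon bases with Rnaseh2c on the opposite strand, which stood at 149 and 127 TPM, so the Kat5 level is uncertain. The release M21 level of Kat5 was 1.60-fold that of M4.

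Kat7 was carried by 2 coding models that differ by a single in-frame exon. Kat7-205, of 611 codons, read 33.8 TPM in pool 1 and 33.6 in pool 2, and Kat7-204, of 581 codons, 25.2 and 21.6 TPM. The longer form was the higher in both pools, at 49.1 ± 2.92% of the gene's TPM against 34.0 ± 1.60%. The 90-base exon adds 30 codons and lies at chr11:95291520-95291609 (minus strand, mm10). It is printed whole because it accounts for the difference in coding length between these models.
Kat7-205: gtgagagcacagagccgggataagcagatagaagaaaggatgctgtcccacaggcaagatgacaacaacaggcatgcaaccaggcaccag

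CBP and p300, encoded by Crebbp and Ep300, are large coactivators that acetylate histone H3 lysine 27 at enhancers. Crebbp read 39.1 TPM in pool 1 and 35.0 in pool 2, and Ep300 20.3 and 21.3 TPM. Crebbp exceeded Ep300 by 0.80 ± 0.16 on the log2(TPM + 1) scale. The gap was wider over near-complete coding transcripts, at 2.34 ± 0.03. Crebbp-201, of 2441 codons, read 32.5 and 32.4 TPM, or 87.9 ± 6.71% of the gene. Ep300-201, of 2412 codons, read 5.51 and 5.69 TPM, or 26.9 ± 0.36% of the gene's TPM and 65.7% of its counts. The rest of the Ep300 level was in a retained-intron model, Ep300-205, at 4.18 and 5.84 TPM, and in short incomplete or non-coding models. This pair summed to 57.9 ± 2.15 TPM, the lowest total of the 3 writer families.

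The BET readers Brd2 and Brd3 bind acetylated lysines through tandem bromodomains and recruit transcription elongation factors. At the gene level they overlapped, with Brd2 at 114 TPM in pool 1 and 108 in pool 2 and Brd3 at 121 and 109 TPM. Brd2 minus Brd3 was -0.05 ± 0.05 on the log2(TPM + 1) scale. Over near-complete coding transcripts they came apart: Brd2 read 50.3 and 47.5 TPM and Brd3 99.4 and 90.4 TPM, a difference of -0.94 ± 0.04. In Brd2, 16.8 ± 1.55% of the TPM was in models annotated for nonsense-mediated decay and 38.6 ± 1.51% in retained-intron models. By share of counts these were 25.1% and 9.40%. Brd2 shares 360 exon bases with H2-DMa and 405 with an antisense gene on the opposite strand, which stood at 7.11 and 7.5 TPM and at 0.06 and 0.21 TPM.

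One Brd2 model carried most of the decay class. Brd2-207 read 15.0 TPM in pool 1 and 17.2 in pool 2, beside 22.8 and 23.2 TPM for Brd2-201, the leading coding model of 798 codons. Brd2-207 holds an exon of 92 bases at chr17:34116598-34116689 (minus strand, mm10) that Brd2-201 lacks. Its length leaves a remainder of 2 when divided by 3, so the reading frame shifts, and the annotated coding sequence of Brd2-207 ends after 146 codons. The stop codon lies at 34116317 to 34116319, in the next exon. The sequence runs through the extra exon and on to that stop, 111 bases in all, with the stop codon in capitals.
Brd2-207: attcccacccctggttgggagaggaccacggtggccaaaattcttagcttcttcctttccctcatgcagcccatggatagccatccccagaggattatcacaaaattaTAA

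Ncor1, the scaffold that joins Hdac3 to nuclear receptors and activates it, had the third highest gene level. Ncor1 (ENSMUSG00000018501.17, chromosome 11, 62316426 to 62458541) read 158 TPM in pool 1 and 174 in pool 2, which overlapped Hdac1. Most of this level was assigned to models with a coding sequence shorter than the longest. Whether the message itself was shorter was not tested. Ncor1-212, an incomplete model of 1695 bases, read 93.0 and 95.8 TPM and held 37.1% of the counts. Ncor1-203, which encodes 291 codons, read 14.7 and 21.2 TPM. Models of at least 2386 codons came to 16.1 and 15.6 TPM, 10.5-fold less than the gene level, and held 34.8% of the counts.

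Across the set, 27 of 31 leading models were protein-coding. Protein-coding models of any length held a median of 85.3% of a member's TPM, against 91.2% for detected protein-coding genes. Near-complete coding models held a median of 73.1%, against 79.8%. More than 80% was in near-complete models for 13 members, and less than 50% for 12, by share of TPM. By share of counts these were 18 and 9 members. The 12 members include Hdac7, Sirt3 and Sirt5. With the coding-sequence limit at 80% these came to 10.7, 12.9 and 19.5 TPM, of gene levels of 18.7, 19.85 and 34.1 TPM, so over 50%. The member counts in this paragraph were not made over other genes. Protein-coding models of any length held under 50% of the TPM for Hdac10, Sirt1, Sirt4, Kat6b and Brd2, and under 50% of the counts for the first 3 of these. By near-complete models 28 members had a TPM of at least 1 in both pools, and Hdac9, Sirt1 and Sirt3 did not. With the coding-sequence limit at 70%, Sirt1 (1.27 and 1.41 TPM) and Sirt3 (13.7 and 12.2 TPM) did as well. Summed over near-complete models, erasers read 849 ± 30.1 TPM, writers 356 ± 1.13 TPM and class I deacetylases alone 619 ± 17.1 TPM.

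**Figure D2:**
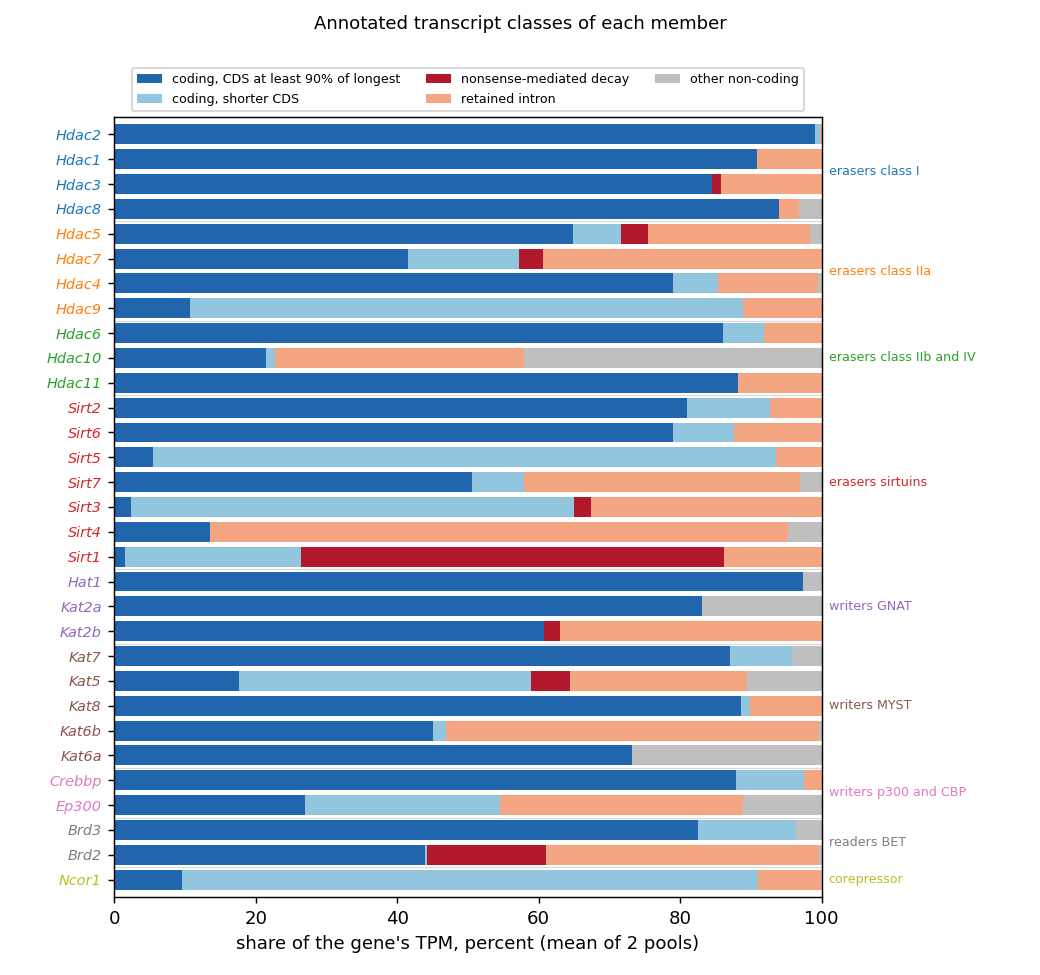
Share of each member's TPM by annotated transcript class, in percent, as the mean of the pools, from near-complete coding models at the left to non-coding models at the right. Hdac2 and Hat1 are almost wholly near-complete coding message, while Sirt1 is mostly a decay model, Sirt4 mostly retained introns, and Hdac9, Sirt5, Sirt3 and Ncor1 mostly shorter coding models.

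**Figure D3:**
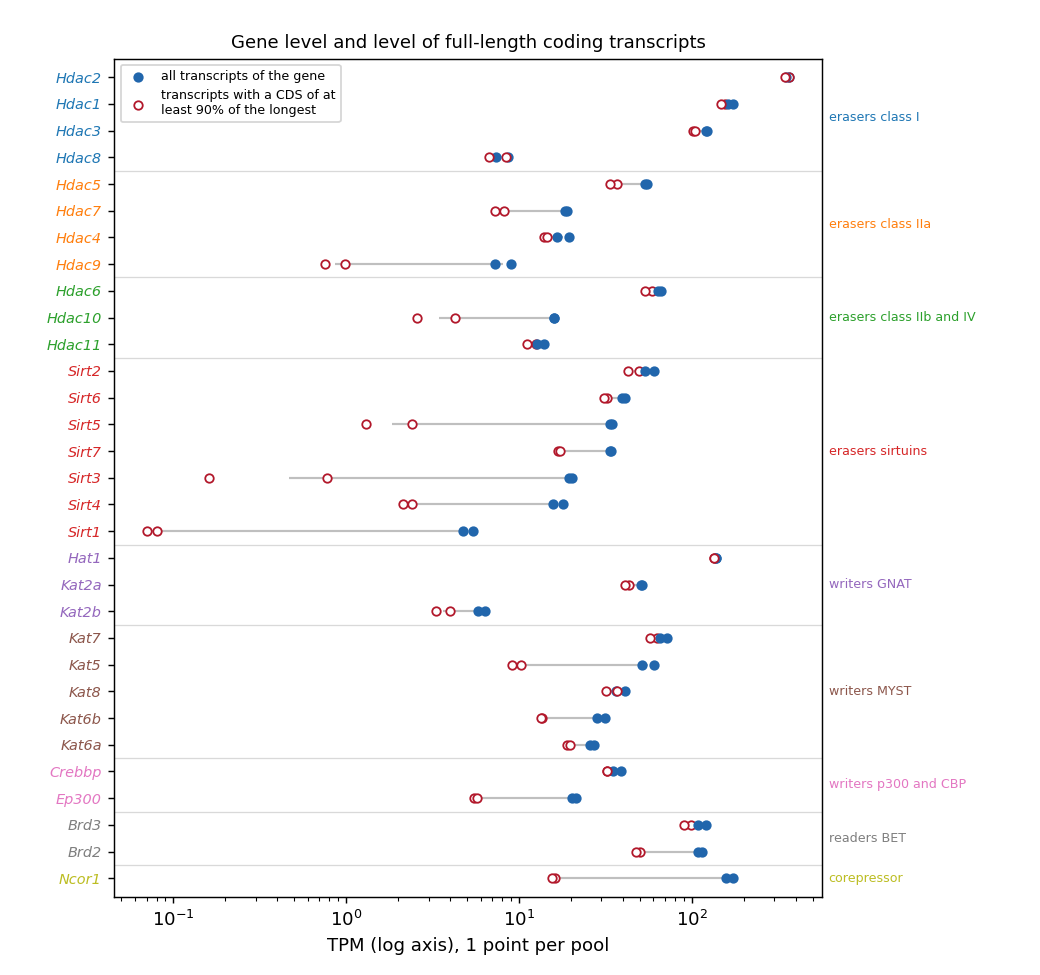
Level of all transcripts of each gene (filled points) and of transcripts with a coding sequence of at least 90% of the longest (open points), in TPM on a log axis, with 1 point per pool and a line joining the means. The points nearly coincide for Hdac2 and Hat1 and lie far apart for Ncor1, Hdac10, Ep300, Kat5, Hdac9 and 4 sirtuins, of which Sirt3, Sirt5 and also Kat5 stand at 12.9, 19.5 and 27.5 TPM under the 80% limit.

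The pools were close to each other over these genes. The difference was described as the log2 ratio of normalised counts, pool 1 over pool 2. Each pool is 1 library, so a difference between them has no replicate check, and an exact sign-flip test over the pools could not give a p below 0.5. Only Hdac9 differed by more than 25% between the pools, at -0.33 with a counting interval of -0.50 to -0.16, from 523 counts in pool 1 and 692 in pool 2. Its ratio lay just inside the limit with no filter on low counts and with release M4 (-0.32 and -0.31), and at -0.29 as a ratio of TPM + 1. That is 0 members past this limit toward pool 1 and 1 toward pool 2. Of all 19063 genes compared, 23.5% passed it in either direction, and of those that averaged at least 100 counts, 8.94% did, 3.1% toward pool 1 and 5.84% toward pool 2. Every member had at least 257 counts in each pool. The median size of the log2 ratio was 0.09 for the members and 0.09 for genes averaging at least 100 counts.

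The members leaned to neither pool by much. Their median log2 ratio was 0.03, and that of all genes compared was -0.003, with 19 members higher in pool 1 and 12 in pool 2. The counting interval left out 0 for 16 members, 10 toward pool 1 and 6 toward pool 2. It covers counting error alone, so genes with many counts leave out 0 at small ratios. Such intervals were not computed for other genes, so this count has no share over all genes beside it. Toward pool 1 the furthest were Hdac8 at 0.27, Kat2b at 0.25 and Sirt4 at 0.20, each from fewer than 400 counts. Of these, the interval of Sirt4 held 0, at -0.05 to 0.45. Toward pool 2, Kat8 followed Hdac9 at -0.18. The class I genes Hdac1, Hdac2 and Hdac3 were at 0.10, 0.08 and -0.03, all within the limit. Kat6b, Ep300 and Hdac4 were at -0.10, -0.13 and -0.08. All 5 erythroid markers and all 5 markers of meninges and mesenchyme were higher in pool 2, with median log2 ratios of -0.45 and -0.35, and their part in the differences of single members was not tested. Scaled by totals of the ERCC spike-ins, synthetic RNAs added to each library, the median of all genes compared moved to -0.17 and that of the members to -0.13, with 4 members higher in pool 1 and 27 in pool 2. Kat8, at -0.34, then joined Hdac9, at -0.49, past the limit.

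**Figure D4:**
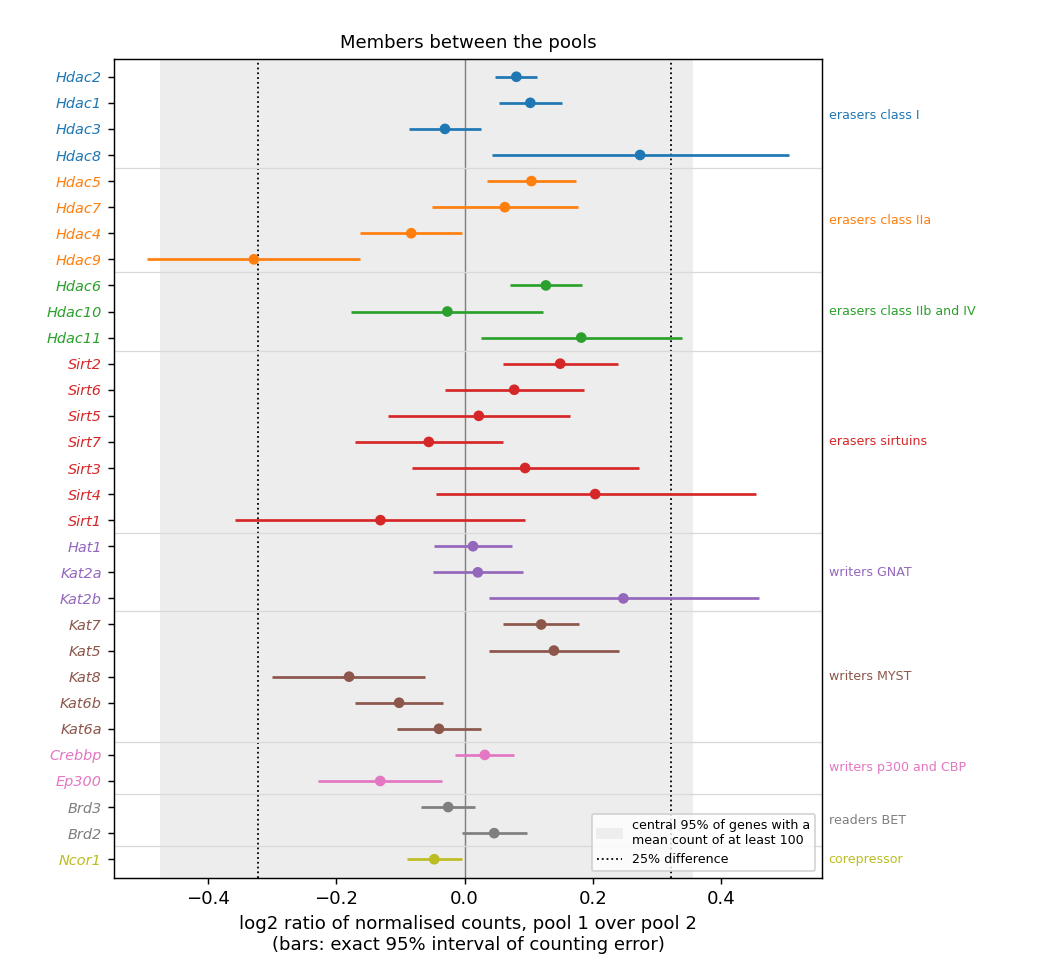
Log2 ratio of normalised counts of each member, pool 1 over pool 2, with exact 95% intervals that cover counting error only; dotted lines mark a difference of 25% and the grey band the central 95% of genes averaging at least 100 counts, from -0.47 to 0.35. Every member lies inside the band, and Hdac9 alone lies past a dotted line.

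Partners of these enzymes were detected in the same libraries. Of 90 companion genes in 10 lists, 89 had a TPM of at least 1 in both pools, against 58.9% of annotated protein-coding genes. The exception was the HBO1 scaffold Jade2 at 0.51 and 0.38 TPM. The lists were chosen with earlier results of these data known. Toward pool 1, 5 companions differed by more than 25%, and toward pool 2 none did. The 5 were Rbbp4 and Chd5 of NuRD, Mbip of the ATAC complex, Jade2, and Mef2b, at log2 ratios of 0.36, 0.36, 0.41, 0.41 and 0.62. These ratios are of counts. The TPM of Chd5 was higher in pool 2, and that of Rbbp4, at 449 in pool 1 and 411 in pool 2, differed by less than 25%. The 5 genes are 5.56% of the companions, beside the 23.5% of all genes compared and the 8.94% of those averaging at least 100 counts, in either direction. Of the latter, 3.1% passed the limit toward pool 1 and 5.84% toward pool 2. Scaled by spike-in totals, only Mef2b passed the limit toward pool 1, and Mbd2, Ing2 and Atxn7 passed it toward pool 2.

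The subunits that accompany Hdac1 and Hdac2 spanned a wide range. In NuRD, which couples deacetylation to nucleosome remodelling, the median of 12 genes was 56.4 TPM. The histone chaperone Rbbp4 led it at 449 and 411 TPM, followed by Mbd3 at 243 and 256 TPM over all transcripts, and the remodeller Chd5 was lowest at 5.34 and 5.81 TPM. Over near-complete coding models Rbbp4 read 139 and 98.3 TPM and Mbd3 56.7 and 65.1 TPM, below Rbbp7 at 218 and 223 TPM. The 11 genes of the Sin3 complex had a median of 37.0 TPM over all transcripts. They ran from Ing2 at 10.1 TPM to the scaffold Sin3b at 119 TPM, with Sap30 next at 101.3 TPM. Over near-complete coding models Sin3b read 21.6 and 16.1 TPM, below Sap30 at 99.9 and 102.7 TPM, and the list median was 16.2 TPM. In CoREST, which adds the demethylase Kdm1a, the median of 7 genes was 58.9 TPM. Kdm1a led at 81.6 and 87.1 TPM, Hmg20b stood at 72.2 and 76.0 TPM, and the scaffold Rcor1 was lowest at 8.32 and 7.88 TPM. Among 3 further subunits of the NCoR complex, Gps2 read 74.8 and 77.6 TPM, Tbl1x 54.7 and 53.9 TPM, and Tbl1xr1 26.4 and 28.3 TPM.

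Writer complexes differed in level. The NuA4 and TIP60 partners of Kat5 had the highest median over all transcripts, 69.8 TPM over 14 genes, with the chromodomain protein Morf4l1 at 400.5 and 389 TPM, Vps72 at 197 and 189.5 TPM, and Epc2 lowest at 11.9 and 11.7 TPM. Over near-complete coding models Morf4l1 read 24.3 and 21.9 TPM, Vps72 read 158 and 142 TPM, and the list median was 27.4 TPM, below those of NCoR (48.7 TPM), CoREST (47.5 TPM) and NuRD (33.7 TPM). The SAGA and ATAC partners of Kat2a and Kat2b had a median of 32.9 TPM over 15 genes and all transcripts. They ran from Tada2b at 2.37 and 2.5 TPM to Mbip at 68.9 and 53.3 TPM and Supt20 at 99.5 and 95.5 TPM. Over near-complete coding models Supt20 read 22.97 and 21.45 TPM, below Mbip at 53.2 and 39.99 TPM, and the list median was 22.2 TPM. The scaffolds of Kat6a, Kat6b and Kat7 had a median of 16.7 TPM over 9 genes, although Ing4 and Meaf6 stood at 128 and 104 TPM. The MSL and NSL partners of Kat8 had a median of 37.2 TPM over 9 genes, led by Mcrs1 at 146 TPM and Kansl2 at 141 TPM, with Msl2 at 6.12 TPM.

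For the class IIa deacetylases, the MEF2 factors they bind had a median of 19.7 TPM. Mef2a read 25.1 and 24 TPM, Mef2c 22.9 and 26 TPM, and Mef2b only 1.97 and 1.27 TPM. Of 6 genes that supply acetyl-CoA or NAD, Acly, which makes nuclear and cytosolic acetyl-CoA from citrate, led at 278 and 250.5 TPM. The citrate carrier Slc25a1 followed at 84.7 and 84.9 TPM. Nmnat1, the nuclear NAD synthase, was the lowest at 11.2 and 11.5 TPM.

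**Figure D5:**
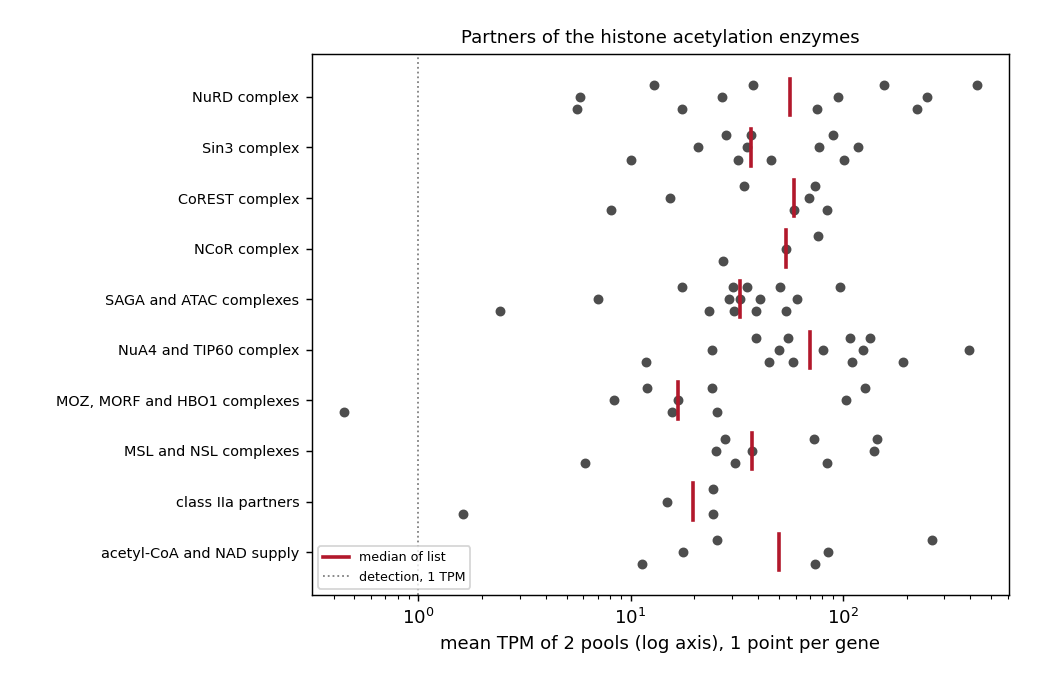
Mean TPM of each companion gene on a log axis, 1 point per gene and 1 row per complex or pathway, with the list median as a red bar and detection at 1 TPM as a dotted line. The levels are over all transcripts; on this measure the NuA4 and TIP60 list has the highest median, 69.8 TPM, and Jade2 is the only gene left of the dotted line.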

How the data were processed

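Members, companion genes and markers were chosen with earlier results of these data known. All members may be named; of a companion list the 2 highest, the 1 lowest, any not detected and any that differs by more than 25% between the pools are named, and of transcripts those with at least 10% of a member's TPM or in its longest coding class. The authors deposited gene and transcript tables for mm10 with GENCODE M21 (used here) and M4 (alternative). The expected counts they deposited are estimates per gene with no normalisation. TPM and FPKM, also deposited, are scaled per length and library, per the file headers. A posterior mean TPM, likewise deposited, was treated as a score. Not given in the sources used here are aligner, quantifier and strand setting. Values of 1 companion gene are not reported here. Entries that name no gene held 5.74e-05% and 9.00e-05% of counts and stayed out. The cDNA was primed with oligo-dT and fragmented by tagmentation, per the labels' protocols.

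Pool ratios used edgeR 4.0.16 in R 4.3.3 (TMM, rounded expected counts, prior count 1, mean count of at least 10), with DESeq2 1.42.0 size factors and ERCC totals (3.58% and 3.28% of counts) as alternatives. Paralog differences used log2(TPM + 1). Intervals are exact binomial at 95% and cover counting error alone; PCR duplicates were not resolved by molecular identifiers.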

Additional observations from a re-analysis of the deposited data

How the results depend on the processing

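No paired analysis was possible because the labels give 1 group. All 31 members were detected at a limit of 0.5 TPM, with release M4 and in each pool alone, 30 at 5 TPM and 27 at 10 TPM. The median level of 37.1 TPM was 35.6 TPM with M4, 32.9 TPM over protein-coding transcripts, and, with limits chosen after seeing the data, 17.1 TPM over transcripts with at least 90% of the longest coding sequence and 19.5 TPM at 80% and 70%. Leaving out 1 pool gave 35.0 to 36.3 TPM. The gene listed first was higher in 8 of 12 paralog pairs, and in 9 over protein-coding or near-complete transcripts. Which gene comes first was set by the list of pairs, so this count only tracks whether an order changed between settings. Kat6a minus Kat6b turned to 0.44 over protein-coding transcripts and to 0.49 over near-complete ones at the 90%, 80% and 70% limits, since the retained-intron models of Kat6b then drop out. Members past the fold numbered 2 with spike-in totals, 0 without a filter, with M4 and with the ratio of TPM + 1, 0 at 1.5-fold and 8 at 1.1-fold, against 1 otherwise. The median log2 ratio was -0.13 with spike-in totals. Under that scaling 15 members changed sign, 8 of them from ratios within their counting interval of 0, and the other 7 turned to -0.0609 for Hdac1, -0.0826 for Hdac2, -0.0591 for Hdac5, -0.0366 for Hdac6, -0.0143 for Sirt2, -0.0240 for Kat5 and -0.0439 for Kat7. With TPM + 1 the sign changed for 4 members, Hdac7 and Brd3 from within that interval, Hdac5 to -0.0424 and Kat2b to -0.12. The cause was not tested. The median share of the leading transcript, 58.8%, was 65.7% by counts and 65.7% with M4, and 55.0% to 58.9% in single pools. The share in protein-coding transcripts was 95.5% by counts and 84.7% to 88.4% in single pools, and that in near-complete ones 85.9% by counts and 72.6% to 73.7% in single pools. Strand, multi-matching reads (9 members had gene counts that are not whole) and the missing replicate of each pool limit these values.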
